A study of Mus musculus with 12 samples.

Results

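The genes of MHC class II antigen presentation were examined in LPS-matured bone marrow derived dendritic cells (DCs) of young and old mice. A set of 10 genes was followed at every probe that the array carries for them: the classical chains H2-Aa, H2-Ab1 and H2-Eb1, the invariant chain Cd74, the peptide-loading chains H2-DMa, H2-DMb1 and H2-DMb2, the chains of their inhibitor, H2-Oa and H2-Ob, and the transactivator Ciita. Probes were named through the transcript accession in the scanner files. This gave 16 probes for the 10 genes, of 56605 probes and 24232 named genes in all, with 4 probes for H2-Ab1, 2 each for H2-DMa, H2-Ob and Ciita, and 1 for each of the others.

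Total RNA was hybridised to 12 single-colour Agilent mouse arrays, 3 for each of 4 groups, and per the study the 3 arrays of a group are independent sets, each the RNA of a pool of 3 mice. All donors were female C57BL/6 mice. Bone marrow was grown with GM-CSF and IL-4, so the cells are a culture and not DCs taken from tissue, and every group including the controls was then matured with 1 µg/ml LPS for 24 h. Young DCs came from mice of 2 months without an agent, Young-Abx DCs from mice of 2 months given ampicillin, neomycin, metronidazole and vancomycin in the drinking water, Old DCs from mice of 24 months without an agent, and Old-LP DCs from mice of 24 months gavaged with Lactobacillus plantarum. The design asks whether age and antibiotic treatment change gene expression in matured DCs and whether the bacterium changes it in old animals. No group without LPS was used here, so the levels below are those of matured cells only.

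MHC class II molecules are pairs of an alpha and a beta chain that carry peptides of ingested proteins to the surface of antigen-presenting cells, where CD4+ T cells read them. New pairs are held by the invariant chain, which blocks the groove and steers them to endosomes; there H2-DM exchanges the remaining fragment for antigen peptides, and H2-DO, found mainly in B cells and in some DCs, holds H2-DM back. CIITA switches these genes on together by joining the factors that sit on the X and Y boxes of their promoters, and DCs that mature under LPS are known to keep class II at the surface while transcription of CIITA goes down.

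Apart from Cd74 and Ciita the genes lie close together on chromosome 17, and the X and Y boxes are the feature that their joint regulation is known for, so the proximal promoters are shown. RefSeq promoter windows of GRCm38.p6, from 250 bases before to 50 after a start, were matched by symbol for 7 of the 10 genes. The strings searched, on both strands and after the windows had been seen, were GCAAC, which is in many X boxes, ATGATGC, which is in the part of the X box known as X2, and TGATTGG, the core of the Y box. Each stretch below runs 5′ to 3′ towards the start, lies wholly before it, and holds 57 bases, with matches to these strings in capitals.
H2-Aa, chr17:34287862-34287918, minus strand: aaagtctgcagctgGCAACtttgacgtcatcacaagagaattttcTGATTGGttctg
H2-Eb1, chr17:34305761-34305817, plus strand: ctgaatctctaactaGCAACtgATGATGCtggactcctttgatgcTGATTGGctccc
H2-Oa, chr17:34092289-34092345, plus strand: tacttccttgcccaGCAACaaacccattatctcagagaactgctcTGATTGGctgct
H2-Ob, chr17:34238801-34238857, plus strand: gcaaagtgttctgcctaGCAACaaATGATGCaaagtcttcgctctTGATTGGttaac
H2-DMb1, chr17:34153083-34153139, plus strand: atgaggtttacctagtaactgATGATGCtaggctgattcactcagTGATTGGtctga
H2-DMb2, chr17:34145112-34145168, plus strand: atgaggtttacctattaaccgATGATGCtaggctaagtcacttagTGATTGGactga

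The Y box string was found in the windows of 6 of the 7 genes, between 45 and 92 bases before the start, and in 7.82% of all 32851 windows. H2-Aa, H2-Eb1, H2-Oa and H2-Ob also held the X box string before it, at a gap of 23 to 26 bases. The pair, with the X box string within 60 bases before the Y box string on 1 strand, was found in 0.451% of all windows. In H2-DMb1 and H2-DMb2 the X2 string preceded the Y box string, at a gap of 17 bases, and their stretches had the same base at 51 of 57 positions. The X2 string alone was found in 2.46% and the X box string alone in 35.2% of all windows. The 2 windows of H2-DMa held no match to the Y box string, which says only that these letters are not in them. The matches are a description of letters and not of bound factors.

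The values are log2 signals after quantile normalization, on which a difference of 1 is a 2-fold change. The 3 arrays of a group carry the letters A, B and C. The A and B arrays of all 4 groups lay on 1 slide, the C arrays of Young and Young-Abx on the second and those of Old and Old-LP on the third. The C arrays were dimmer, with 37.3% to 46.0% of spots well above background against 61.2% to 66.4% on the first slide, and the array Old C was the dimmest of the 12. Across probes well above background, A and B of a group differed with an SD of 0.179 to 0.273 log2 units over the 4 groups, and A or B differed from C with an SD of 0.979 to 1.29. Results are therefore given with the difference for each letter, and, as a setting chosen after the C arrays had been seen, on the first slide alone. The brightest probe of each of the 10 genes was well above background on 12 of 12 arrays and saturated on none. A list of 8 DC markers (Itgax, Zbtb46, Flt3, Ccr7, Cd40, Cd80, Cd86, Fscn1) had 7 or 8 genes well above background on every array. Since RNA of whole cultures was measured, fewer cells of a type and less RNA per cell cannot be told apart.

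In the fit to all 12 arrays no gene of the 10 passed the threshold in any of the 6 comparisons of groups, which asked for a log2 fold change of 0.5 or more in size and a Benjamini-Hochberg adjusted p, over all probes, of 0.05 or less in limma. Of all probes, 0.62% passed in Old against Young, 0.344% in Young-Abx against Young, 0.348% in Old-LP against Old, 0.163% in Old-LP against Young-Abx, 0.00177% in Old against Young-Abx and 0% in Old-LP against Young. At an unadjusted p of at most 0.05 the members were 1, 1, 2, 2, 0 and 0 of 10 in the same order, where 6.05%, 3.9%, 5.87%, 3.35%, 1.54% and 1.13% of all probes reached it. Of the 10 genes, 8 had a lower mean in Old than in Young DCs, with a median log2 fold change of -0.43, and 8 of 10 had a lower mean in Young-Abx than in Young DCs, with a median of -0.55. In Old-LP against Old DCs, 8 of 10 had a higher mean, with a median of 0.48. The median over all 24232 genes was between -0.01 and 0.03 in the 6 comparisons. These comparisons share arrays (Young in the first pair, Old in the first and the third), so their values are given side by side and not as support for each other.

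**Figure D1:**
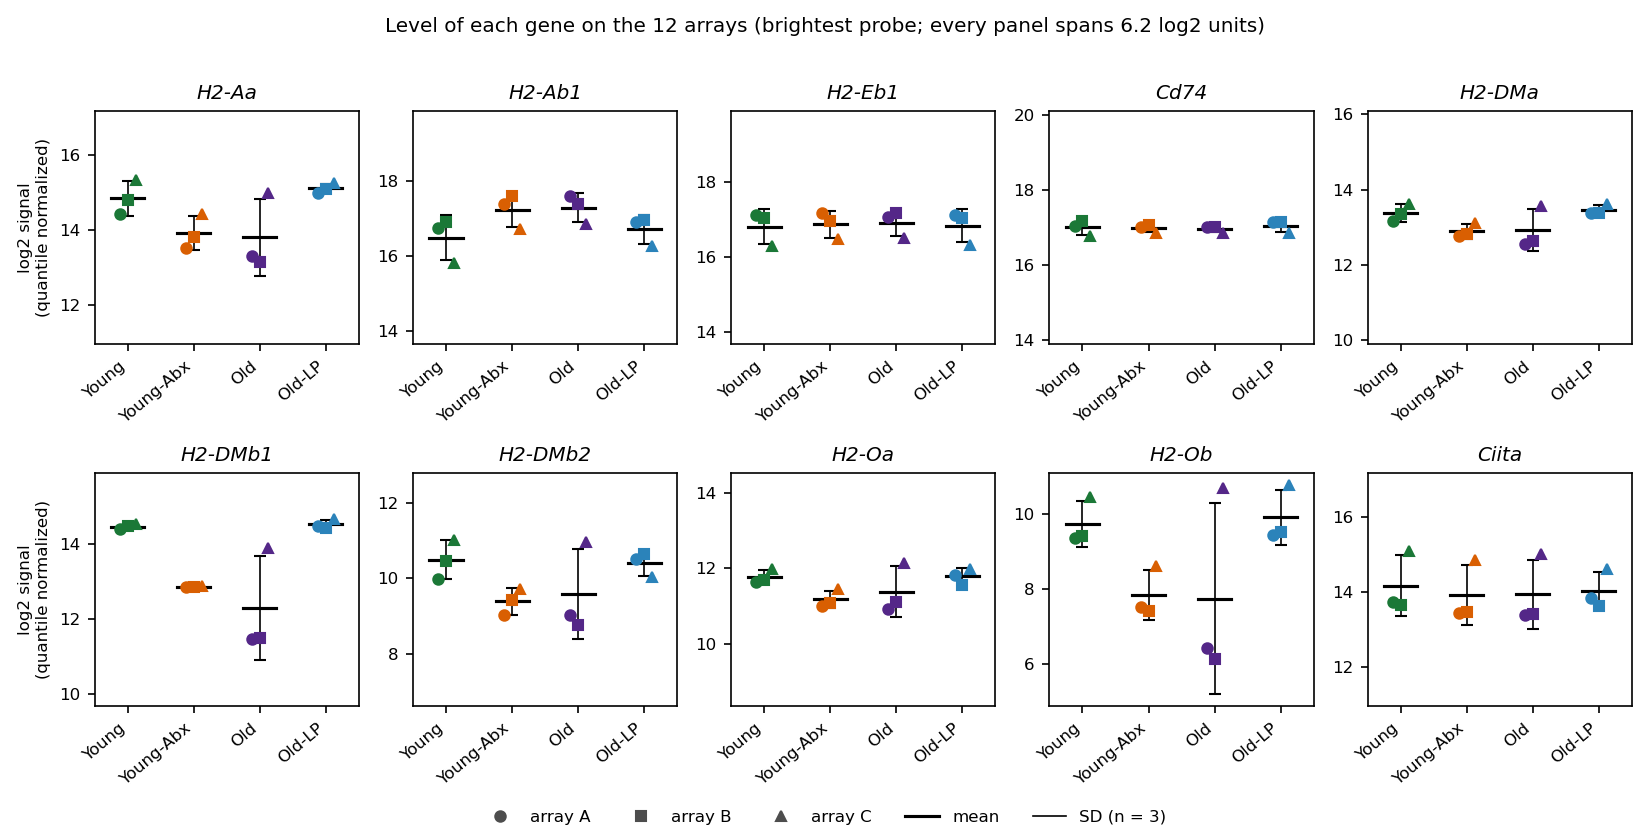
Log2 signal (vertical axis) of the brightest probe of each gene on the 12 arrays, by group (horizontal axis); circles, squares and triangles are arrays A, B and C, bars the mean and SD of 3 arrays. H2-DMb1 lay between 14.38 and 14.65 on all Young and Old-LP arrays and at 11.46 and 11.49 on Old A and B, with Old C at 13.88, whereas Cd74 lay between 16.78 and 17.19 everywhere.

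H2-DMb1, the beta chain of the peptide exchanger H2-DM, had the largest difference of the 10 in Old against Young DCs. Its log2 signals were 14.38, 14.46 and 14.51 on the Young arrays A, B and C, 12.84, 12.84 and 12.88 on Young-Abx, 11.46, 11.49 and 13.88 on Old, and 14.47, 14.42 and 14.65 on Old-LP. The Young and Old-LP arrays overlapped with each other, and both lay wholly above the Young-Abx and the Old arrays. The array Old C stood 2.40 log2 units above the mean of Old A and B, where the C arrays of the other groups stood 0.04 to 0.21 above theirs.

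The log2 fold change of H2-DMb1 in Old against Young was -2.17 (SE 0.535, 4.50-fold lower, limma adjusted p = 0.173). By letter the difference was -2.92, -2.97 and -0.63. In Young-Abx against Young it was -1.60 (SE 0.535, limma adjusted p = 0.733), and the 3 letters gave -1.54, -1.62 and -1.63. In Old-LP against Old it was 2.24 (SE 0.535, 4.71-fold higher, limma adjusted p = 0.188), where the first slide gave 2.97 and the C arrays 0.77. All letters had 1 direction in each of these comparisons, and the letters differed most where Old C entered. Without that array the values were -2.97 and 3.04, with limma adjusted p of 0.000199 and 0.000218, and H2-DMb1 also passed in Young-Abx against Young (-1.60, limma adjusted p = 0.00254) and in Old-LP against Young-Abx (1.66, limma adjusted p = 0.00295). In the same fits 1.04%, 0.749%, 0.71% and 0.468% of all probes passed. Old C is singled out, as the array that stood apart, from fits that each left out 1 array. Old then holds only A and B of 1 slide, so these p-values take in no spread of Old between slides.

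Other settings called H2-DMb1 too. With the slide as a block the log2 fold change was -2.58 in Old against Young (limma adjusted p = 0.0197) and 2.24 in Old-LP against Old (limma adjusted p = 0.0212), where 2.7% and 3.29% of all probes passed. With the letter as a block in its place it did not pass (limma adjusted p = 0.0753 and 0.0801). With only the Young and Young-Abx arrays in the fit, its difference of -1.60 had a limma adjusted p of 0.0495, and 0.246% of probes passed. On the first slide alone H2-DMb1 was 7.68-fold lower in Old than in Young, 2.99-fold lower in Young-Abx than in Young and 7.82-fold higher in Old-LP than in Old. There Old also differed from Young-Abx, by -1.36 (limma adjusted p = 0.0289), in a comparison where 0.0406% of probes passed. The first slide thus placed Old lowest and Young-Abx next, with Young and Old-LP above. It did not separate the last pair (difference 0.03, limma adjusted p = 0.931). The C arrays, which lay on different slides for Old and Young-Abx, reversed the order of these groups. By letter, Old against Young-Abx gave -1.38 for A, -1.35 for B and 1.00 for C. In the fit to all arrays this difference was -0.57 and did not pass.

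H2-DMb2, the second beta chain gene of H2-DM, is a near copy of H2-DMb1, and whether its probe also binds H2-DMb1 transcripts was not tested. Its log2 signals were 9.99, 10.47 and 11.02 on the Young arrays, 9.02, 9.43 and 9.73 on Young-Abx, 9.02, 8.76 and 10.96 on Old, and 10.52, 10.64 and 10.03 on Old-LP. The Young-Abx arrays lay wholly below the Young arrays, and Old A and B lay below all Young arrays, while Old C was among the highest. The log2 fold change was -0.91 (SE 0.536) in Old against Young. H2-DMb2 was 2.15-fold lower in mean in Young-Abx than in Young, and the log2 fold change was 0.82 (SE 0.536) in Old-LP against Old. On the C arrays of the third slide the difference between Old-LP and Old was -0.93, and on the first slide it was 1.69.

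H2-DMa, the alpha chain that pairs with these beta chains, moved over a narrower range. Its brighter probe gave 13.16, 13.36 and 13.62 on Young, 12.75, 12.81 and 13.11 on Young-Abx, 12.56, 12.62 and 13.56 on Old, and 13.38, 13.39 and 13.62 on Old-LP. Young-Abx lay wholly below Young and Old-LP, and Old overlapped with all. The log2 fold changes were -0.47 (SE 0.292), -0.49 (SE 0.292) and 0.55 (SE 0.292) in Old against Young, Young-Abx against Young and Old-LP against Old. The second H2-DMa probe was well above background on 1 of 12 arrays and carries no comparison. Within arrays, the log2 difference of H2-DMb1 minus H2-DMa changed by -1.71 from Young to Old, by -1.11 from Young to Young-Abx and by 1.69 from Old to Old-LP. In each case the 3 arrays of 1 group lay apart from those of the other, which gives an exact two-sided permutation p of 0.1, the smallest that 3 against 3 allows, so none of the 12 such tests run can pass after adjustment.

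H2-Ob and H2-Oa encode the beta and alpha chains of H2-DO. H2-Ob gave 9.35, 9.42 and 10.44 on the Young arrays at its brighter probe, 7.52, 7.40 and 8.61 on Young-Abx, 6.42, 6.12 and 10.67 on Old, and 9.44, 9.50 and 10.75 on Old-LP. Old A and B were the lowest of the 12 arrays, and Old C was above all Young arrays. The Young-Abx arrays lay wholly below those of Young and of Old-LP.

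The log2 fold change of H2-Ob was -2.00 (SE 1.03, limma adjusted p = 0.966) in Old against Young, with -2.93, -3.29 and 0.23 by letter. It was -1.89 (SE 1.03) in Young-Abx against Young, with -1.82, -2.02 and -1.83 by letter, and 2.16 (SE 1.03, limma adjusted p = 0.911) in Old-LP against Old, with 3.02, 3.38 and 0.08. The difference on the C arrays was thus opposite in sign to A and B in Old against Young, and near 0 in Old-LP against Old. Without Old C the values were -3.46 and 3.63, with limma adjusted p of 0.0203 and 0.0190, and Old was again only A and B of 1 slide. The second H2-Ob probe, well above background on all arrays but Young-Abx C and Old C, gave -1.71 (SE 0.373, limma adjusted p = 0.106), -1.49 (SE 0.373, limma adjusted p = 0.275) and 1.80 (SE 0.373, limma adjusted p = 0.106) in the 3 comparisons. For this probe A and B had 1 direction in each comparison, and each difference on the C arrays rests on 1 of the 2 readings at background. With the slide as a block it passed in all 3 (-2.10, -1.49 and 1.80, limma adjusted p = 0.00862, 0.0284 and 0.00947), and with the letter as a block in none (limma adjusted p = 0.0732, 0.174 and 0.0705).

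H2-Oa gave 11.65, 11.69 and 11.99 on the Young arrays, 11.01, 11.07 and 11.44 on Young-Abx, 10.91, 11.10 and 12.15 on Old, and 11.83, 11.57 and 11.99 on Old-LP. Young-Abx again lay wholly below Young and Old-LP, and Old spanned the whole range. Its log2 fold changes were -0.39 (SE 0.326) in Old against Young, -0.60 (SE 0.326) in Young-Abx against Young and 0.41 (SE 0.326) in Old-LP against Old. The within-array log2 difference of H2-Ob minus H2-Oa changed by -1.60 from Young to Old (exact permutation p = 0.4), by -1.29 from Young to Young-Abx (exact permutation p = 0.1) and by 1.75 from Old to Old-LP (exact permutation p = 0.3).

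The classical chains did not move together. H2-Aa, the alpha chain of I-A, gave 14.42, 14.80 and 15.35 on the Young arrays, 13.53, 13.83 and 14.43 on Young-Abx, 13.31, 13.15 and 14.99 on Old, and 15.00, 15.09 and 15.25 on Old-LP. The Old-LP arrays lay above all Young-Abx and all Old arrays, although the gap to Old C was only that between 15.00 and 14.99. Its log2 fold change was -1.04 (SE 0.474, limma adjusted p = 0.84) in Old against Young, -0.93 (SE 0.474) in Young-Abx against Young and 1.30 (SE 0.474, limma adjusted p = 0.639) in Old-LP against Old. The last was 1.89 without Old C, where it passed (limma adjusted p = 0.0444) with Old as A and B of 1 slide only.

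H2-Ab1, the beta chain of I-A, went the other way at its brightest probe. The log2 signals were 16.74, 16.92 and 15.82 on Young, 17.38, 17.62 and 16.72 on Young-Abx, 17.62, 17.38 and 16.86 on Old, and 16.91, 16.95 and 16.27 on Old-LP. Within each letter, Young-Abx and Old were above Young and Old-LP. The log2 fold change in Old against Young was 0.79 (SE 0.377, limma adjusted p = 0.889), with 0.87, 0.46 and 1.04 by letter. When the letter entered the fit as a block, the same difference passed (SE 0.151, limma adjusted p = 0.0417), in a fit where 2.18% of all probes passed, and so it did with the slide as a block (0.71, limma adjusted p = 0.0480). In Young-Abx against Young it was 0.75 (SE 0.377) and passed with the slide as a block (limma adjusted p = 0.0308), where 2.04% of probes passed. In Old-LP against Old it was -0.57 (SE 0.377), with -0.71, -0.43 and -0.59 by letter.

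The other 3 probes named H2-Ab1 did not all repeat this. In Old against Young they gave log2 fold changes of 0.09, 0.40 and -0.38, in Young-Abx against Young -0.03, 0.29 and -0.42, and in Old-LP against Old -0.26, -0.55 and 0.49. The third probe had the direction of the brightest, and the fourth had the opposite one. The fourth probe gave 15.05, 15.47 and 15.13 on Young, 14.72, 14.88 and 14.80 on Young-Abx, 14.64, 14.89 and 14.99 on Old, and 15.37, 15.54 and 15.08 on Old-LP, and its Old and Young-Abx arrays lay wholly below the Young and Old-LP arrays. No probe of the 4 passed in the fit to 12 arrays, and which transcripts each of them binds was not examined here, so no single direction is given for the gene.

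**Figure D2:**
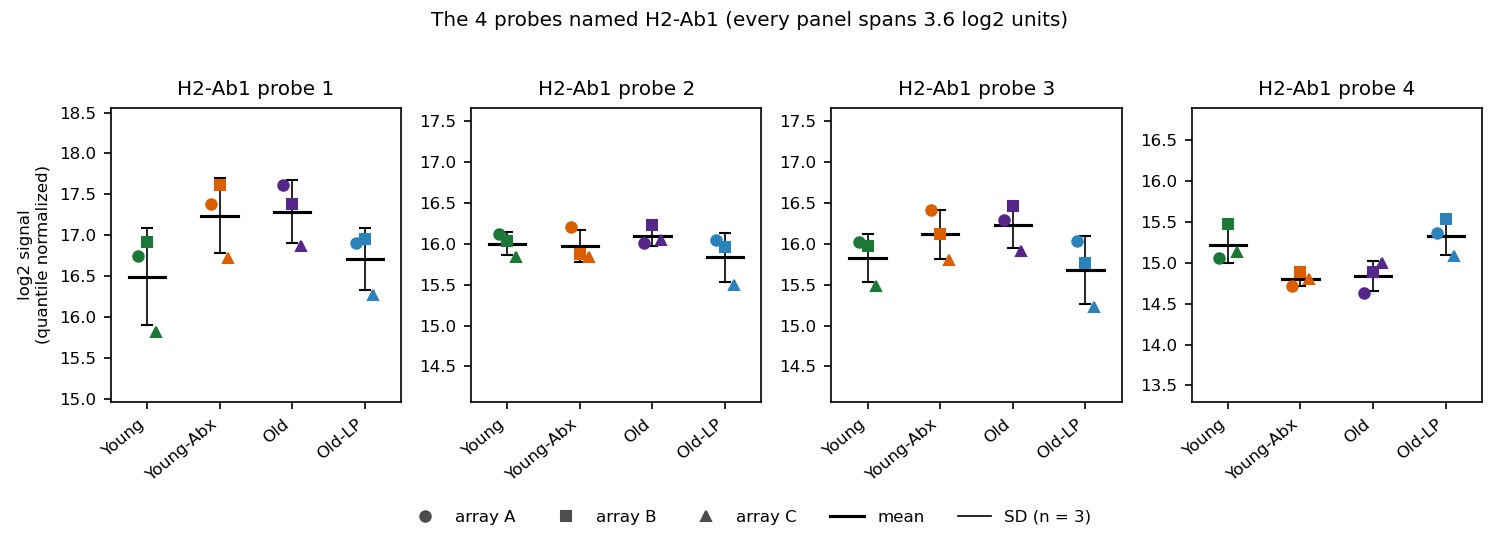
Log2 signal (vertical axis) of the 4 probes named H2-Ab1 on the 12 arrays by group; symbols are arrays A, B and C, bars the mean and SD of 3 arrays. Probe 1 had its highest means in Young-Abx (17.24) and Old (17.29), and probe 4 its lowest means in the same groups (14.80 and 14.84).

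H2-Eb1, the beta chain of I-E, gave 17.12, 17.04 and 16.28 on the Young arrays, 17.19, 16.97 and 16.48 on Young-Abx, 17.07, 17.19 and 16.50 on Old, and 17.12, 17.05 and 16.33 on Old-LP. The 4 groups overlapped, and the C array was the lowest in each. The log2 fold change was 0.11 (95% confidence interval -0.66 to 0.87) in Old against Young, 0.07 (-0.70 to 0.83) in Young-Abx against Young and -0.09 (-0.85 to 0.68) in Old-LP against Old. The alpha chain partner of I-E, H2-Ea, could not be named through the accessions and was not analysed here.

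Cd74, the invariant chain, gave 17.05, 17.19 and 16.78 on Young, 17.03, 17.08 and 16.86 on Young-Abx, 17.02, 17.03 and 16.86 on Old, and 17.15, 17.15 and 16.86 on Old-LP. All 4 groups overlapped, and again the C array was the lowest in each. Its log2 fold change was -0.04 (95% confidence interval -0.49 to 0.41) in Old against Young, -0.02 (-0.47 to 0.44) in Young-Abx against Young and 0.08 (-0.37 to 0.54) in Old-LP against Old. Cd74, H2-Eb1 and the first H2-Ab1 probe were above the 99.98th percentile of all probes in mean signal, none was flagged as saturated, and whether differences are compressed at this end of the scale was not tested.

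Ciita, the transactivator, gave 13.74, 13.66 and 15.10 on the Young arrays at its brighter probe, 13.45, 13.47 and 14.85 on Young-Abx, 13.40, 13.43 and 15.01 on Old, and 13.84, 13.63 and 14.61 on Old-LP. The C arrays were 0.87 to 1.60 log2 units above the mean of A and B in every group, which is more than any difference between groups. The log2 fold change was -0.22 (SE 0.591) in Old against Young, -0.25 (SE 0.591) in Young-Abx against Young and 0.08 (SE 0.591) in Old-LP against Old. By letter the first was -0.33, -0.23 and -0.09 and the second -0.29, -0.20 and -0.25, so each letter had Old and Young-Abx below Young. On the first slide alone these differences were -0.28 (limma adjusted p = 0.177) and -0.24 (limma adjusted p = 0.267). The second Ciita probe gave -0.31 (SE 0.374), -0.66 (SE 0.374) and 0.02 (SE 0.374) in the 3 comparisons.

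**Figure D3:**
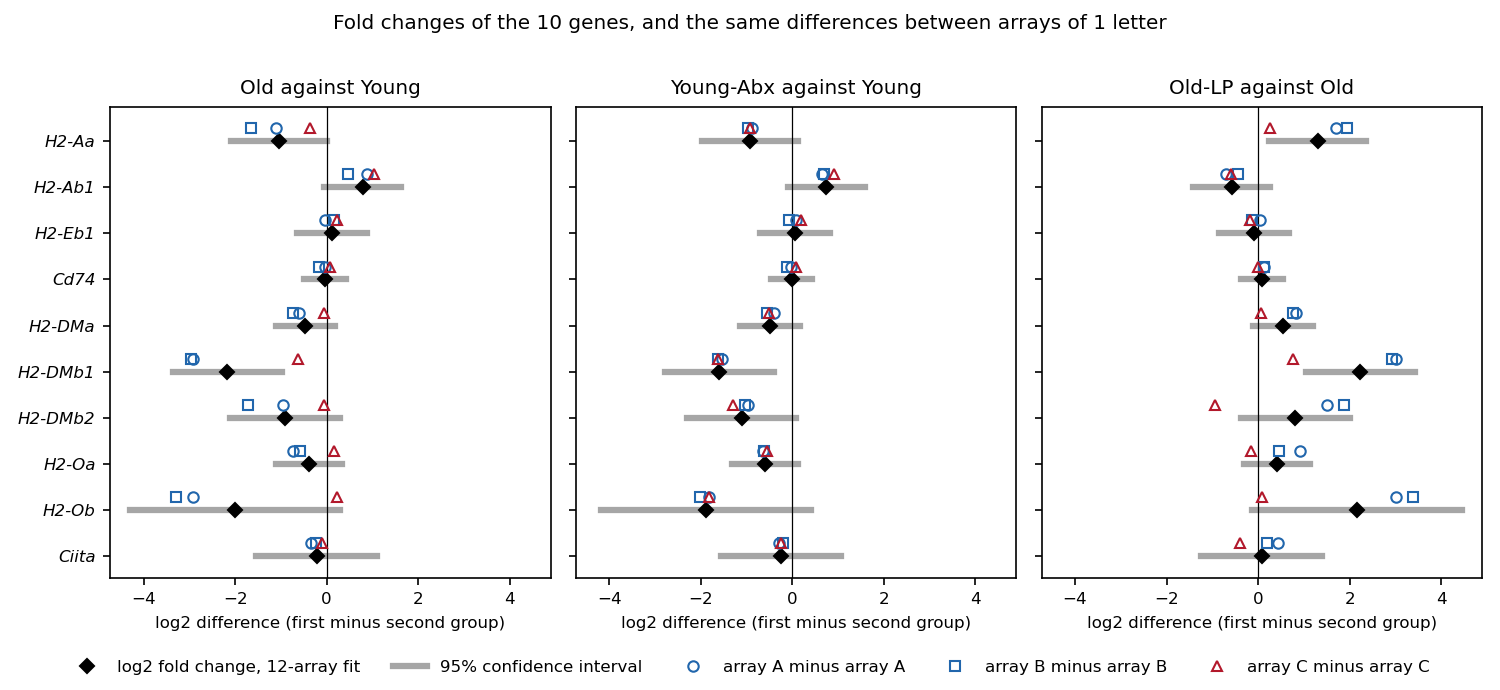
Log2 difference (horizontal axis) of each gene (vertical axis) in 3 comparisons; diamonds and grey bars are the fold change and 95% confidence interval of the fit to 12 arrays, open symbols the difference between arrays of 1 letter. In Young-Abx against Young the 3 letters lay close together for H2-DMb1 (-1.54, -1.62 and -1.63), whereas in both comparisons with Old the C arrays (triangles) stood apart, as for H2-Ob (0.23 against -2.93 and -3.29).

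Counted over the 10 genes, the groups did not overlap for 1 gene in Old against Young, where 9.65% of all probes had no overlap, for 5 in Young-Abx against Young (9.86%), for 2 in Old-LP against Old (9.38%), for 6 in Old-LP against Young-Abx (9.51%), for 0 in Old against Young-Abx (5.31%) and for 0 in Old-LP against Young (4.72%). The 5 genes in Young-Abx against Young were H2-DMa, H2-DMb1, H2-DMb2, H2-Oa and H2-Ob, all lower in Young-Abx. With H2-Aa, the same genes were the 6 that were higher in Old-LP than in Young-Abx without overlap, in which H2-DMb1 differed by 1.66 (limma adjusted p = 0.798) and H2-Ob by 2.05.

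On the first slide alone, 7 of the 10 genes passed in Old against Young, where 9.17% of all probes passed. H2-Aa, H2-DMa, H2-DMb1, H2-DMb2, H2-Oa and H2-Ob fell and the first H2-Ab1 probe rose. In Young-Abx against Young 5 passed, of 6.14% of all probes, with H2-Aa, H2-DMb1, H2-Oa and H2-Ob lower and the first H2-Ab1 probe higher. In Old-LP against Old 6 passed, of 8.24% of all probes, and in Old-LP against Young-Abx 6 passed, of 4.81% of all probes. In both of these H2-Aa, H2-DMa, H2-DMb1, H2-DMb2, H2-Oa and H2-Ob rose. H2-Ob had the largest differences on this slide, 8.63-fold lower in Old than in Young and 9.19-fold higher in Old-LP than in Old (limma adjusted p = 0.000205 and 0.000262). This setting holds 2 arrays a group, hybridised on 1 slide, and its p-values measure only the spread between A and B.

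Old-LP and Young DCs did not differ in any of the 10 genes at the threshold, in the fit to 12 arrays or on the first slide alone, where 0.0389% of all probes passed, and that does not show that they were alike. The 95% confidence interval of the log2 fold change was -1.13 to 1.26 for H2-DMb1, -2.13 to 2.46 for H2-Ob, -0.79 to 1.31 for H2-Aa and -0.62 to 1.06 for the first H2-Ab1 probe. Old and Young-Abx DCs differed by -0.57 in H2-DMb1 (-1.77 to 0.62) and by -0.11 in H2-Ob (-2.40 to 2.19), and for the rest by at most 0.21.

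H2-Aa, H2-DMa, H2-DMb1, H2-DMb2, H2-Oa and H2-Ob followed each other closely across arrays. After the mean of each letter had been removed, the 15 correlations among them over the 12 arrays were between 0.848 and 0.982, and between 0.876 and 0.995 without Old C. The first H2-Ab1 probe was negatively correlated with each of the 6, from -0.778 to -0.633, and from -0.908 to -0.818 without Old C. Over the 12 arrays, with letter means removed, Ciita correlated with the 6 at 0.606 to 0.847 and Cd74 at 0.628 to 0.727. H2-Eb1 correlated with them at -0.411 to -0.181. These are descriptions over arrays that share slides and controls. The 6 genes were chosen after such values had been seen.

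Genes outside the 10 were ranked by their correlation over the 12 arrays with the mean standardised level of H2-Aa, H2-Ab1, H2-Eb1, H2-DMa, H2-DMb1 and Cd74. Of 10671 genes ranked, the 5 most alike were Ms4a8a (0.956), Cxcl10 (0.952), Gm6981 (0.944), Tmsb10 (0.941) and Clec4a3 (0.913). With the letter means removed they stood at 0.929, 0.900, 0.868, 0.887 and 0.851. Cxcl10 is a chemokine induced by interferon, and its mean log2 signal was 9.17 in Young, 8.31 in Young-Abx, 8.18 in Old and 9.48 in Old-LP. Its own members shared the profile unevenly. Over the 12 arrays Cd74 correlated with it at 0.721, H2-DMb1 at 0.659 and H2-Ab1 at -0.02. With the letter means removed, Cd74, H2-DMa, H2-Aa and H2-DMb1 stood at 0.910, 0.835, 0.816 and 0.784. H2-Eb1 and H2-Ab1 then stood at 0.086 and -0.357.

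The genes around the class II pathway gave no call in the fit to 12 arrays in Old against Young, Young-Abx against Young or Old-LP against Old. None of 14 measured regulators of class II and Ciita passed. Rfx5, Rfxap and Rfxank, which form the factor on the X box, had log2 fold changes of 0.14, 0.06 and 0.02 in Old against Young, and Nfya, a subunit of the Y box factor, 0.48 (SE 0.508). Irf4, an interferon regulatory factor of DCs and B cells, had the largest difference of the list in Old against Young. It is named here after its values had been seen. Its mean log2 signal was 12.20 in Young, 11.79 in Young-Abx, 11.66 in Old and 12.03 in Old-LP. Each letter had Old below Young (-0.48, -0.54 and -0.59) and Old-LP above Old (0.54, 0.44 and 0.13), with log2 fold changes of -0.54 (SE 0.265, limma adjusted p = 0.918) and 0.37 (SE 0.265). On the first slide alone Irf4 passed in Old against Young (-0.51, limma adjusted p = 0.0328), where 9.17% of all probes passed. None of 7 measured genes of endosomal proteolysis passed, among them Ctss, the protease that trims the invariant chain, at -0.20 (SE 0.563). None of 3 genes of surface turnover passed. Marchf1, the ligase that removes class II from the surface, was at 0.25 (SE 0.383), and Cd83, which opposes it, at -0.54 (SE 0.237), with all Old arrays below all Young arrays. In Old-LP against Old, Cd83 was at 0.63 with all Old-LP arrays above. None of 11 class I presentation genes passed, and the median log2 fold change of that list in Old against Young was 0.01 against -0.43 for the 10 class II genes. H2-Eb2, the measured class II gene outside the 10, was at -0.05 (SE 0.308).

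Along chromosome 17 the class II genes alternate with genes of other function, in the order H2-Oa, Brd2, H2-DMa, H2-DMb2, H2-DMb1, Psmb9, Tap1, Psmb8, Tap2 and H2-Ob, then H2-Ab1, H2-Aa and H2-Eb1. Brd2, a bromodomain protein gene between H2-Oa and H2-DMa, was at 0.03 (SE 0.333) in Old against Young. Psmb9 and Psmb8, immunoproteasome subunits between H2-DMb1 and H2-Ob, were at -0.04 (SE 0.279) and -0.17 (SE 0.515). Tap2, a peptide transporter subunit, was at 0.26 (SE 0.443). These 4 genes did not pass, and on the first slide they differed by 0.28 log2 units at most. There H2-DMb1 and H2-Ob, on either side of Psmb9, Psmb8 and Tap2, stood at -2.94 and -3.11. H2-Oa and H2-DMa, on either side of Brd2, stood at -0.66 and -0.67. Tap1, the other transporter subunit, gave 12.58, 12.57 and 7.52 on Young, 12.02, 11.90 and 7.15 on Young-Abx, 11.77, 12.04 and 5.92 on Old, and 12.26, 12.30 and 8.60 on Old-LP. The C arrays lay far below A and B in every group, so that the fold change of -0.98 in Old against Young had an SE of 2.09, but each letter had Old below Young. Tap1 was well above background on 11 of 12 arrays. Its reading on Old C lay below the lowest signal well above background there (6.65), so the difference on the C arrays rests on a reading at background. On the first slide Tap1 passed at -0.67 (limma adjusted p = 0.0217), a difference of the size of those of H2-DMa (-0.67) and H2-Oa (-0.66).

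Some lists of markers of other cells moved with several of the class II genes. The summed intensity of 6 B cell genes (Ms4a1, Cd79a, Cd79b, Pax5, Ebf1, Fcer2a) was 4978, 4721 and 3795 on the Young arrays A, B and C, 3427, 3189 and 3460 on Young-Abx, 2735, 2885 and 8095 on Old, and 5255, 4698 and 4707 on Old-LP. It was lowest on Old A and B and highest on Old C. On Old C, H2-Ob, H2-DMb1, H2-DMb2 and H2-Aa stood 4.40, 2.40, 2.07 and 1.76 log2 units above the mean of Old A and B. Ciita, H2-Oa and H2-DMa stood 1.60, 1.14 and 0.97 above it, and the first H2-Ab1 probe, H2-Eb1 and Cd74 below it. On Old C, Ms4a1 stood at a log2 signal of 11.63 against 8.84 and 8.98 on Old A and B. The sum rests mostly on Cd79b and Ms4a1, with mean log2 signals of 11.53 and 9.96 in Young, against at most 6.74 for the rest. Of the 6 genes, 4 had a lower mean in Old than in Young. Cd79a was higher in mean in Old (7.06) than in Young (6.57) through Old C, at 9.94, while Old A and B, at 5.63 and 5.62, lay below all Young arrays. Fcer2a went the other way from those 4 genes, at 6.33 in Young, 6.67 in Young-Abx, 6.60 in Old and 5.98 in Old-LP. No gene of the list passed in any of the 3 comparisons, 4 to 6 of the 6 were well above background on each array, and Pax5, which defines the lineage, was well above background on 7 of 12 arrays. Since B cells express class II genes and H2-DO, this is given beside the result, and the part of B cells in it was not tested.

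**Figure D4:**
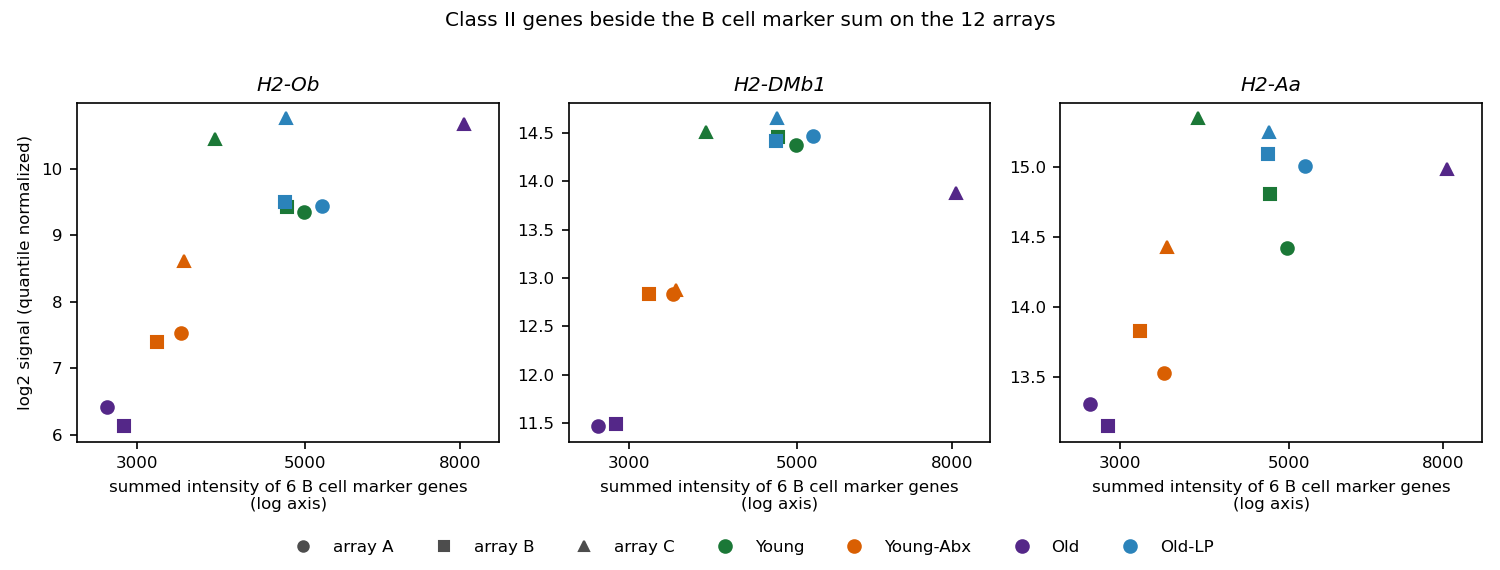
Log2 signal of H2-Ob, H2-DMb1 and H2-Aa (vertical axes) against the summed intensity of 6 B cell marker genes (horizontal log axis) on the 12 arrays, coloured by group; symbols are arrays A, B and C. The sum ran from 2735 and 2885 on Old A and B, where the 3 genes were lowest, to 8095 on Old C, where H2-DMb1 was 13.88, below all Young and Old-LP arrays.

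Markers of neutrophils and their precursors were also lowest on Old A and B and highest on Old C, with sums of 7 genes at 21630, 19860 and 22220 on Young, 11710, 11330 and 16350 on Young-Abx, 7654, 7393 and 52340 on Old, and 24270, 24820 and 35670 on Old-LP. The sum of 6 T cell genes was 5476 to 9109 in Old, below 14960 to 26210 in Young and 13850 to 19680 in Old-LP, and was lowest on Old C. The sum of the 8 DC genes was 98790, 105900 and 109400 on Young, 84710, 85600 and 109300 on Young-Abx, 79530, 79350 and 120400 on Old, and 95930, 94840 and 103900 on Old-LP. That of 6 mast cell and basophil genes was 11650, 11730 and 18570 on Young, 10150, 10330 and 19920 on Young-Abx, 8353, 6992 and 28550 on Old, and 13370, 13450 and 14830 on Old-LP. Both sums were lowest on Old A and B and highest on Old C of the 12 arrays, as those of the B cell and neutrophil lists were. These sums rest in large part on their brightest genes, such as Ccr7, S100a9 and Cpa3, with mean log2 signals of 16.13, 13.59 and 12.64 in Young. Not all genes moved with the sum of their list. Cd80 was at 11.28 on Old C, below 11.50 and 11.61 on Old A and B. Cd4, of the T cell list, was at 9.33 in mean in Old against 9.29 in Young. The sum of 7 macrophage genes was 148700, 147600 and 215800 on Old and 136000, 139400 and 191200 on Young, higher in Old at each letter. None of the genes of these 5 lists passed in Old against Young in the fit to 12 arrays. With the slide as a block 5 did, all lower in Old (Cd3e, Mpo, Cd86, Fcgr1 and Ms4a2), where 2.7% of all probes passed. In Old-LP against Old none passed in the fit to 12 arrays. With the slide as a block Cd3d, Cd3e, Mpo, Fcgr1 and Ms4a2 did, all higher in Old-LP, where 3.29% of all probes passed.

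Of 6 genes of megakaryocytes and erythroid cells, Gp9, a platelet glycoprotein, and Epor, the erythropoietin receptor, rose in Old against Young, by 2.36 and 2.05 (limma adjusted p = 0.0184 and 0.00838), and in Young-Abx against Young, by 2.27 and 1.88 (limma adjusted p = 0.0320 and 0.0183). Epor fell by 1.90 in Old-LP against Old (limma adjusted p = 0.0199), where Gp9 was at -1.99 (limma adjusted p = 0.0635). Itga2b, the platelet integrin chain, and Gata1, a transcription factor of both lineages, were at 2.44 and 1.61 in Old against Young (limma adjusted p = 0.262 and 0.0616) and at -2.11 and -1.48 in Old-LP against Old (limma adjusted p = 0.469 and 0.119). For these 4 genes the groups did not overlap in any of the 3 comparisons, where 9.65%, 9.86% and 9.38% of all probes had no overlap. The median of the 6 log2 fold changes was 1.83 in Old against Young, 1.81 in Young-Abx against Young and -1.69 in Old-LP against Old. Hba-a1 went the other way in all 3. Its mean log2 signal was 10.69 in Young, 10.19 in Young-Abx, 10.20 in Old and 10.62 in Old-LP. With the slide as a block 4 genes passed as higher in Old than in Young and 3 as higher in Young-Abx than in Young. In the same fit 4 passed as lower in Old-LP than in Old. Of all probes, 2.7%, 2.04% and 3.29% passed in these comparisons. The summed intensity of the list was 65190, 69170 and 39670 on Young, 99870, 83910 and 48960 on Young-Abx, 91190, 101400 and 49230 on Old, and 73060, 65850 and 45270 on Old-LP. It was higher in Old than in Young at each letter, and Pf4, its brightest gene, was at 0.35 (SE 0.435) in Old against Young. The part of these cells in the class II values was not tested.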

How the data were processed

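Values of 12 arrays were analysed, 3 in each of 4 groups taken from the labels. The authors deposited, for every spot, the intensity written by Agilent Feature Extraction after background subtraction, with no normalization between arrays; the file headers name version 12.1.1.1 and the labels 10.5. They also deposited a log2 table of 46302 probes, quantile normalized per the methods, used as an alternative. The array design is of build mm9, and RefSeq promoter coordinates are of GRCm38.p6; the builds were not mixed.

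From 59305 spots that are not controls, 1068 outlier-flagged readings were set to missing, log2 intensities were quantile normalized and repeated spots averaged to 56605 probes. Accessions named 35405 probes. Each gene is given at its probe of highest mean signal, with its other probes beside it. R 4.3.3 and limma 3.58.1 were used (lmFit with 1 mean per group on all arrays, eBayes, Benjamini-Hochberg over all probes), and all tests are two-sided. A call needed a log2 fold change of 0.5 or more in size and an adjusted p of 0.05 or less. The code was tested on simulated data. The number of arrays limits the precision.

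Arrays of the same letter deviated together from their group means (r of 0.415 to 0.711 in 18 pairs). The labels do not say what a letter marks; A and B deviated together across letters as closely (0.449 to 0.570), and both against C (-0.659 to -0.466), so the check parts the first slide from the C arrays and does not tell A from B. The fit with the letter as a block is given where it changes a call. Other normalizations, filters, blocks and left-out arrays were tried. The genes, lists and motifs were chosen with earlier results of these data known. The B cell sum leaves out 1 marker of the list as first written, which is not reported here.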

Additional observations from a re-analysis of the deposited data

How the results depend on the processing

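The count of genes called in the fit to all 12 arrays was 0 in each of the 6 comparisons, and it stayed 0 in all of them with normexp background correction (offset 50, on the median spot signal), with each array shifted by its 75th percentile, with the log2 table of the authors, with dim probes removed, with the probes of a gene averaged, with an intensity trend and with outlier spots kept. With the replicate letter as a block (replicate block) the count was 1 in Old against Young, and the block changed no other call. With the slide as a block it was 2 in Old against Young, 1 in Young-Abx against Young and 1 in Old-LP against Old. With only the 2 groups compared it was 1 in Young-Abx against Young. On the first slide alone it was 7 in Old against Young, 5 in Young-Abx against Young, 6 in Old-LP against Old, 1 in Old against Young-Abx, 6 in Old-LP against Young-Abx and 0 in Old-LP against Young.

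Leaving out 1 array at a time gave counts of 0 to 2 in Old against Young, 0 to 1 in Young-Abx against Young, 0 to 3 in Old-LP against Old, 0 to 1 in Old-LP against Young-Abx, and 0 to 0 in the other comparisons. All calls gained in this way came without Old C, and they were those of H2-DMb1, H2-Ob and H2-Aa given above. No called value changed sign. Where the C arrays of 2 groups share a slide, the median log2 fold change of the 10 genes within it was -0.53 in Young-Abx against Young and -0.08 in Old-LP against Old, where the first slide gave -0.55 and 0.74. Why the C arrays differ was not tested.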
